A study of Mus musculus with 12 samples.

Results

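The MHC class II genes with their DM and DO partners are 10 genes of the class II presentation pathway: H2-Aa, H2-Ab1, H2-Eb1, Cd74, Ciita, H2-DMa, H2-DMb1, H2-DMb2, H2-Oa and H2-Ob. They were taken by gene symbol from a table of 55322 genes, and each symbol matched 1 gene. All 10 passed the filter on low values, which asked for at least 1 FPKM (reads scaled to gene length and library size) in at least 3 of the 12 libraries and left 12434 genes for testing.

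The RNA came from spleen cDCs, the conventional dendritic cells, of unchallenged mice. Each subset, cDC1 and cDC2, was sequenced in an L form and an M form, which gives the groups L-cDC1 and M-cDC1 of the first subset and the groups L-cDC2 and M-cDC2 of the second, or 4 groups of 3 libraries. The series title speaks of cDCs of lymphoid origin, but the sample titles do not spell out the letters L and M, which are used here as given. All 12 libraries carry the same genotype label, Il7r-cre with a Rosa26-lsl-tdTomato reporter, while the protocols name wild type C57BL/6J mice aged 7-8 weeks. In such reporter mice Cre is driven from the Il7r locus, so a cell is marked if it or a precursor expressed Il7r, and lymphocytes share that history. The labels say neither which libraries were sorted on the reporter nor which replicates came from separate animals, so the p-values below reflect the scatter of these libraries, part of which may be technical.

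A class II molecule is a pair of chains, alpha and beta, that shows peptides from taken-up antigen to CD4+ T cells. The chains are assembled with the invariant chain (Cd74), whose last fragment, CLIP, stays in the peptide groove until the DM molecule exchanges it for peptide, while DO binds DM and restrains it. Transcription depends on the coactivator Ciita, which does not bind DNA itself but joins factors on an X box (bound by RFX) and a Y box (an inverted CCAAT motif bound by NF-Y) in front of these genes.

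The upstream sequences of 6 members are shown because these boxes are what the class II promoters have in common. RefSeq promoters (GRCm38.p6, 250 bases before to 50 after a start) were read for 7 of the 10 members. Those of H2-Ab1, Ciita and Cd74 were not read. Windows of 56 bases are printed 5′ to 3′ on the gene's strand. Capitals mark ATTGG, the core of a Y box, and, where 18 to 26 bases lie between it and a following ATTGG, AACNNATG, a form of the X box core. The letters AACNNATG were chosen after these promoters had been read.
H2-DMb1, chr17:34153085-34153140 (+): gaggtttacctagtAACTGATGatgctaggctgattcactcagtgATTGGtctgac
H2-DMb2, chr17:34145114-34145169 (+): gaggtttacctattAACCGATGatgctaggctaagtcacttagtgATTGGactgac
H2-Eb1, chr17:34305763-34305818 (+): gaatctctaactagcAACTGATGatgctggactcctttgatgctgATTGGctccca
H2-Ob, chr17:34238803-34238858 (+): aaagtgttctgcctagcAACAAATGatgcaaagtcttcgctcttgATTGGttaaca
H2-Aa, chr17:34287861-34287916 (-): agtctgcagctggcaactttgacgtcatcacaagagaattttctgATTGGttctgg
H2-Oa, chr17:34092291-34092346 (+): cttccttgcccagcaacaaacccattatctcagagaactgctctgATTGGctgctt

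H2-DMb1, H2-DMb2, H2-Eb1 and H2-Ob held the pair, with 20 to 23 bases between the motifs. H2-Aa and H2-Oa held ATTGG at the same kind of position without AACNNATG, and the 2 RefSeq promoters of H2-DMa held no pair. Among all 32851 promoters of the same length, those of the members included, 13 (0.0396%) held the pair on the gene's strand and 0.0639% on either strand. Because the letters were chosen from the members' promoters, these shares are no test of enrichment. Alone, AACNNATG stood in 8.86% of promoters and ATTGG in 37.4%, counting both strands. The windows of H2-DMb1 and H2-DMb2 differed at 6 of 56 bases although the levels of these genes went opposite ways between subsets, as given below. A match of letters is a description and not a bound site.

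Library depth, recovered from the FPKM steps, ran from 15879864 reads in M-cDC2 replicate 2 to 24498235 in M-cDC2 replicate 1, and no member had fewer than 4828 reads in a library (H2-Oa). All 8 cDC1 markers were higher in cDC1 and all 8 cDC2 markers were lower in cDC1, within both L and M (Xcr1 by 6.77 and 6.44 on the log2 scale in L and M, and Sirpa by -6.72 and -7.31), so the libraries carried the subset markers their labels name. The L libraries held more RNA of lymphocyte markers than the M libraries. The summed level of 16 B cell markers was 628 to 1005 FPKM in L-cDC1 against 347 to 391 in M-cDC1, and 995 to 3477 in L-cDC2, highest in replicate 2, against 412 to 454 in M-cDC2. B cells themselves make class II, DM and DO, so these values stand again beside the L against M results.

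The members together took 8.82% to 9.66% of all reads in L-cDC1 and 8.75% to 9.39% in M-cDC1, and 6.59% to 7.00% in L-cDC2 and 7.41% to 8.35% in M-cDC2. Both cDC1 groups thus lay above both cDC2 groups in this share. Cd74 had the highest FPKM of all genes in each of the 12 libraries. H2-Ab1 ranked 2 to 4, H2-Eb1 6 to 9 and H2-Aa 8 to 11. The DM and DO genes ranked from 34 to 436 and Ciita from 375 to 635. Levels of different genes depend on the gene length used for FPKM, which is 3798 bases for H2-Aa in the deposited table, whereas its first annotated transcript in GENCODE M21 has 1128 bases.

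**Figure D1:**
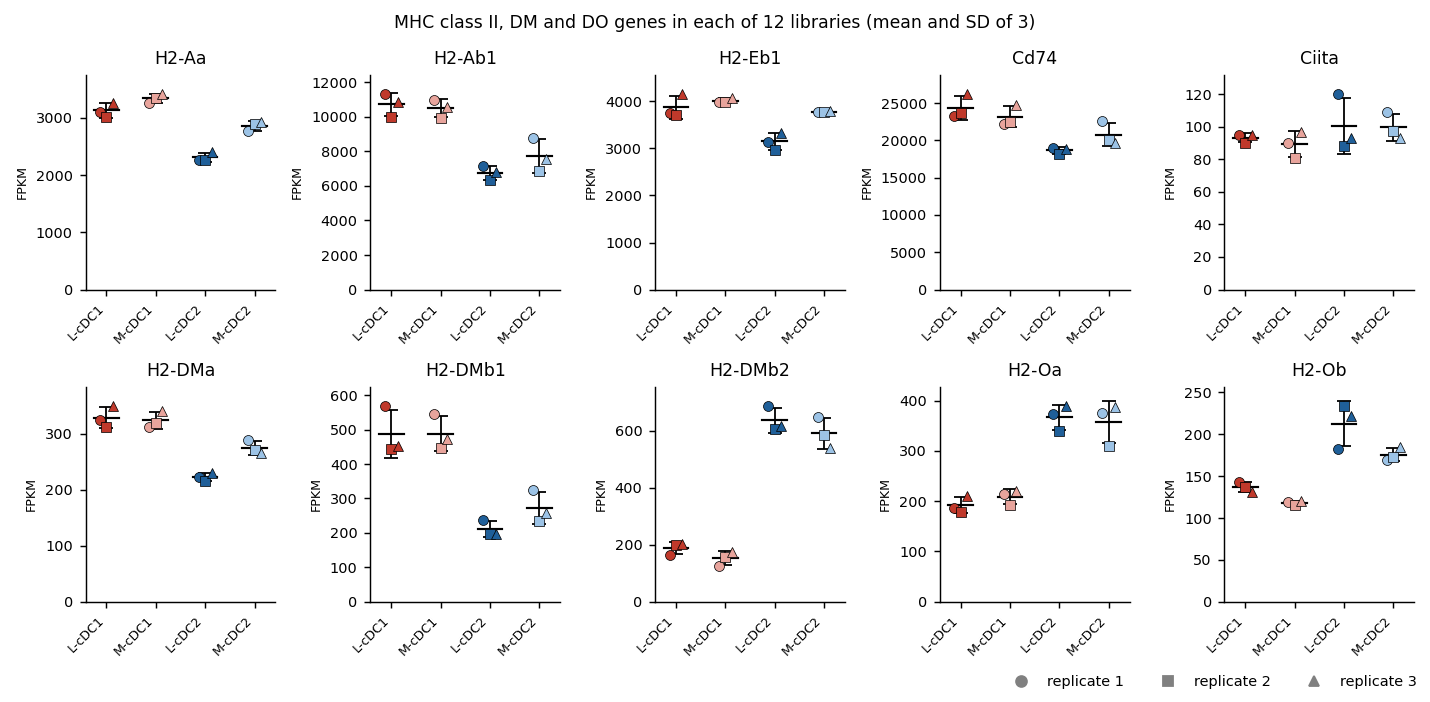
FPKM (vertical axis of each panel, starting at 0) of the 10 members in the 12 libraries, grouped on the horizontal axis by subset and, within it, L before M; symbols are replicates, and the black line and whiskers are the mean and SD of 3. H2-DMb1 is high where H2-DMb2 is low, and the H2-Oa and H2-Ob panels run the other way from those of H2-Aa, H2-Ab1 and H2-DMa.

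The comparison of cDC1 with cDC2 asks how the pathway differs between the subsets, within L and within M. The classical chains H2-Aa and H2-Ab1, the DM alpha chain and H2-DMb1 were higher in cDC1, while H2-DMb2 and both DO chains were lower in cDC1, in both L and M. With limma (Benjamini-Hochberg adjusted p under 0.05 over the 12434 genes), 9 of 10 members were called in L, 6 higher and 3 lower in cDC1, where 39.5% of all genes tested were called (12.9% higher and 26.6% lower). In M, 7 of 10 were called, 4 higher and 3 lower, against 38.1% of all genes (12.7% higher and 25.4% lower). With no filter on low values 5 were called in L, 2 higher and 3 lower, without H2-Aa, H2-Ab1, H2-Eb1 and Cd74 (limma adjusted p = 0.0634 to 0.720). With only the M libraries fitted 4 were called in M, 1 higher (H2-DMb1) and 3 lower, without H2-DMa, H2-Ab1 and H2-Aa (limma adjusted p = 0.0595 to 0.143). The groups did not overlap for 9 members in L and for 8 in M, against 48.6% and 51.1% of all genes. The median log2 difference of the members was 0.34 in L and 0.12 in M, and that of all genes was -0.19 and -0.18. Since libraries are bulk samples, fewer cells of a type and less RNA per cell cannot be told apart in these and the following differences. Of 14 tested B cell markers 1 was higher and 9 were lower in cDC1 in L, and 3 were higher and 5 lower in M, where their sums lay closer together. In L-cDC1 7 of 8 tested T and NK cell markers lay below L-cDC2, as 1 did in M, and none was higher. Of 8 tested monocyte and macrophage markers 1 was higher and 3 were lower in L, and 2 were higher and 5 lower in M. Of 10 tested markers of mature DCs 2 were higher and 3 lower in L, and 2 were higher and 6 lower in M. Of 4 tested plasmacytoid DC markers 1 was higher and 1 lower in L, and 2 were higher and 1 lower in M. The part of these cells in the subset differences was not tested.

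Scaling matters here because the middle of all genes differs between subsets. After scaling by the median of ratios, whose factors were 0.907 to 0.969 in the cDC1 libraries and 1.07 to 1.1 in the cDC2 libraries, the medians of all genes came to -0.04 in L and -0.03 in M, and the differences of all members moved up by about the same amount. Relative to that middle of the transcriptome, 6 members were higher and 3 lower in cDC1 in both L and M. Quantile normalization gives every library the same list of values, so it pins the handful of genes at the top of the ranking, where Cd74 and the classical chains lie. After it 2 members were higher and 5 lower in cDC1 in L, and 1 was higher and 6 were lower in M. The directions given below for DM and DO held under all 3 scalings, while those of H2-Ab1, H2-Eb1 and H2-Aa did not, as stated at each.

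H2-Ab1 encodes the beta chain of the A molecule, the class II molecule that C57BL/6 mice display. It stood at 11323, 10017 and 10863 FPKM in the L-cDC1 libraries and 10968, 9936 and 10589 in M-cDC1, and at 7140.1, 6355 and 6797 in L-cDC2 and 8805, 6844 and 7576 in M-cDC2. All 6 cDC1 libraries lay above all 6 cDC2 libraries. The log2 difference was 0.67 in L (SE 0.1, limma adjusted p = 0.000128) and 0.45 in M (SE 0.1, adjusted p = 0.00314). Under quantile normalization it was -0.45 in L and -0.37 in M.

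H2-Aa, the alpha chain that pairs with it, had 3099.8, 3016 and 3266 FPKM in the L-cDC1 libraries, 3255, 3351 and 3414 in M-cDC1, 2259.7, 2265 and 2406 in L-cDC2, and 2763, 2883 and 2926 in M-cDC2. Again no cDC2 library reached a cDC1 library. The difference was 0.44 in L (SE 0.07, limma adjusted p = 0.000309) and 0.23 in M (SE 0.07, adjusted p = 0.0261). The call in M was lost when any of M-cDC1 replicates 2 or 3 or M-cDC2 replicates 1 or 3 was left out, with an adjusted p up to 0.0747, and quantile normalization gave -0.33 in M and 0 in L.

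H2-Eb1, the beta chain of the E molecule, had 3763, 3711 and 4156 FPKM in the L-cDC1 libraries and 3992, 3979 and 4078 in M-cDC1. In cDC2 it had 3141, 2970.2 and 3334 FPKM in L and 3778, 3773 and 3796 in M. The cDC1 libraries were above the cDC2 libraries of the same letter, but those of L-cDC1 and M-cDC2 overlapped. The log2 difference was 0.30 in L (SE 0.08, limma adjusted p = 0.00722) and 0.09 in M (95% interval -0.08 to 0.25, adjusted p = 0.414). In M it passed after median-of-ratios scaling (0.29, adjusted p = 0.0212), and quantile normalization gave -0.22 in L and -0.53 in M.

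Cd74, the invariant chain, had 23219, 23698 and 26206 FPKM in the L-cDC1 libraries, 22209, 22481 and 24796 in M-cDC1, 19040.4, 18166 and 18796 in L-cDC2 and 22553, 19986 and 19706 in M-cDC2. L-cDC1 lay wholly above L-cDC2, whereas M-cDC2 replicate 1 reached into the range of M-cDC1. The log2 difference was 0.38 in L (SE 0.09, limma adjusted p = 0.00368) and 0.16 in M (95% interval -0.03 to 0.35, adjusted p = 0.180). In M it passed after median-of-ratios scaling (0.36, adjusted p = 0.0146) and with limma-voom on recovered reads (0.16, adjusted p = 0.0487). Quantile normalization sets it to 0 by construction, since Cd74 ranks first in every library.

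**Figure D2:**
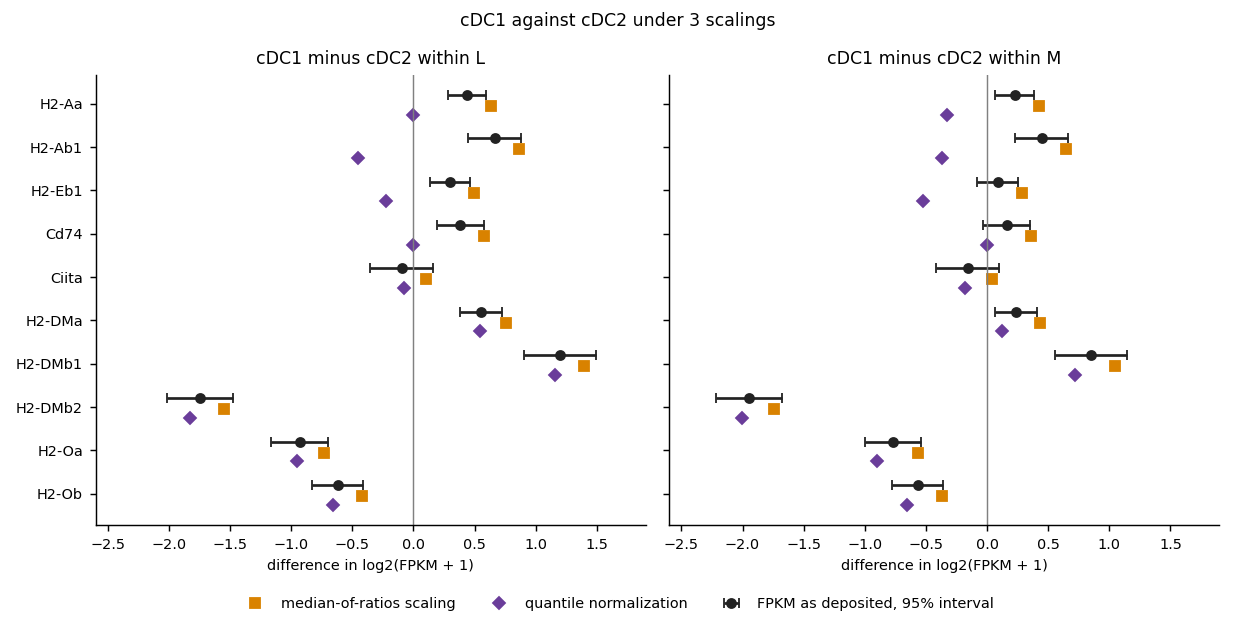
Difference of cDC1 minus cDC2 in log2(FPKM + 1) (horizontal axis) for the 10 members (rows) within L (left) and within M (right); black circles with 95% intervals are FPKM as deposited, orange squares follow median-of-ratios scaling and purple diamonds quantile normalization. H2-DMb1 stays right of 0 and H2-DMb2, H2-Oa and H2-Ob stay left of it under each scaling, while the diamonds of H2-Ab1 and H2-Eb1 lie left of 0 in both panels.

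The DM molecule pairs 1 alpha chain, H2-DMa, with a beta chain that mice encode in adjoining genes, H2-DMb1 and H2-DMb2. H2-DMa stood at 324, 311 and 349 FPKM in the L-cDC1 libraries, 311, 319 and 340.4 in M-cDC1, 223, 216 and 229 in L-cDC2, and 288, 271 and 265 in M-cDC2. All cDC1 libraries were above all cDC2 libraries. It was higher in cDC1 by 0.56 in L (SE 0.08, limma adjusted p = 8.13e-05) and 0.24 in M (SE 0.08, adjusted p = 0.0315) on the log2 scale, where quantile normalization gave 0.12 in M (adjusted p = 0.281). The call in M was lost without M-cDC1 replicate 2 or 3 or M-cDC2 replicate 2 or 3 (adjusted p up to 0.106).

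The beta chain genes went opposite ways. H2-DMb1 had 568, 443 and 453 FPKM in the L-cDC1 libraries and 544, 447 and 474 in M-cDC1, against 238, 198 and 198 in L-cDC2 and 324, 235 and 257 in M-cDC2. H2-DMb2 had 166, 200.0 and 204 FPKM in the L-cDC1 libraries and 127, 159 and 175 in M-cDC1, against 686, 607 and 616 in L-cDC2 and 649, 585 and 539 in M-cDC2. Neither gene had a cDC1 library within the range of the cDC2 libraries. The log2 difference of H2-DMb1 was 1.2 in L (SE 0.14, limma adjusted p = 9.32e-06) and 0.85 in M (SE 0.14, adjusted p = 0.000224). That of H2-DMb2 was -1.74 in L (SE 0.13, limma adjusted p = 8.82e-08) and -1.95 in M (SE 0.13, adjusted p = 2.89e-08).

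The ratio of H2-DMb2 to H2-DMb1 within a library does not change when the library is multiplied by a factor. It was 0.292, 0.452 and 0.450 in L-cDC1 and 0.233, 0.355 and 0.370 in M-cDC1, against 2.89, 3.07 and 3.11 in L-cDC2 and 2.0, 2.48 and 2.1 in M-cDC2. H2-DMb1 was thus the more abundant of the pair in every cDC1 library and H2-DMb2 in every cDC2 library. The log2 ratio differed between cDC1 and cDC2 by -2.88. Its p was 0.005 in an exact permutation test over 400 relabellings of cDC1 and cDC2 within L and M (two-sided), which is the smallest these can give, and 0.0125 after adjustment over the 10 ratio tests. The summed FPKM of both beta chain genes was 678 ± 48.8 in L-cDC1 and 642 ± 32.6 in M-cDC1, against 848 ± 66.2 in L-cDC2 and 863 ± 95.9 in M-cDC2 (SD, n = 3 each).

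How well the table can tell these genes apart follows from their sequences. In GENCODE M21 (GRCm38) the coding sequences have 783 bases each and differ at 32, so they are 95.9% identical, with a longest identical run of 221 bases. Of the 75-base stretches of the H2-DMb1 transcript 19.1% also occur in a transcript of another gene, here H2-DMb2 alone, and of those of H2-DMb2 20.9% occur elsewhere, in H2-DMb1 and in transcripts of other genes. The 60 coding bases with the most differences, 17, are bases 208 to 267 of both and lie within 1 exon, with capitals where the genes differ. They show where a read can be assigned to 1 gene.
H2-DMb1, chr17:34155585-34155644 (+): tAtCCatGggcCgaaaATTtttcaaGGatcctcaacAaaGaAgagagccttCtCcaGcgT
H2-DMb2, chr17:34147803-34147862 (+): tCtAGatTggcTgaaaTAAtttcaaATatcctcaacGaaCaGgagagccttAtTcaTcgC

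How reads from the shared stretches were assigned is not given in the sources used here, so the level of either gene is uncertain to the extent of those stretches.

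The DO chains, H2-Oa (alpha) and H2-Ob (beta), were both lower in cDC1. H2-Oa had 187, 178 and 210.4 FPKM in the L-cDC1 libraries and 214, 192 and 221 in M-cDC1, against 373, 339 and 389 in L-cDC2 and 376, 309 and 388 in M-cDC2. H2-Ob had 143, 138 and 131 FPKM in the L-cDC1 libraries and 119, 116 and 120.1 in M-cDC1, against 182, 233 and 222 in L-cDC2 and 169, 173 and 184 in M-cDC2. For both genes every cDC1 library lay below every cDC2 library. On the log2 scale H2-Oa differed by -0.93 in L (SE 0.11, limma adjusted p = 1.02e-05) and -0.77 in M (SE 0.11, adjusted p = 6.31e-05). H2-Ob differed by -0.62 in L (SE 0.10, limma adjusted p = 0.000186) and -0.57 in M (SE 0.10, adjusted p = 0.000408).

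The DO alpha chain set against the DM alpha chain was lower in cDC1. The ratio of H2-Oa to H2-DMa was 0.585 ± 0.0164 in L-cDC1 and 0.646 ± 0.0432 in M-cDC1, against 1.65 ± 0.0644 in L-cDC2 and 1.3 ± 0.16 in M-cDC2 (SD, n = 3 each). The log2 ratio differed by -1.25 (exact permutation, p = 0.005, adjusted p = 0.0125). H2-Oa shares 321 exon bases with BC051537, a lncRNA on the other strand listed at 0.458 to 2.32 FPKM, and 17.3% of its 75-base stretches occur there. The libraries do not mark the strand, so reads of that stretch cannot be told apart, and the same holds for 360 exon bases of H2-DMa shared with Brd2 and 329 of Ciita shared with Dexi.

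H2-Ab1 differed more between subsets than Cd74 or H2-Eb1 did. The ratio of Cd74 to H2-Ab1 was 2.28 ± 0.197 in L-cDC1 and 2.21 ± 0.165 in M-cDC1, against 2.76 ± 0.0959 in L-cDC2 and 2.69 ± 0.197 in M-cDC2. That of H2-Eb1 to H2-Ab1 was 0.362 ± 0.0262 in L-cDC1 and 0.383 ± 0.0183 in M-cDC1, against 0.466 ± 0.0253 in L-cDC2 and 0.494 ± 0.0614 in M-cDC2 (SD, n = 3 each). Both log2 ratios were lower in cDC1, by -0.28 and -0.36 (exact permutation, p = 0.005 and adjusted p = 0.0125 for each).

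**Figure D3:**
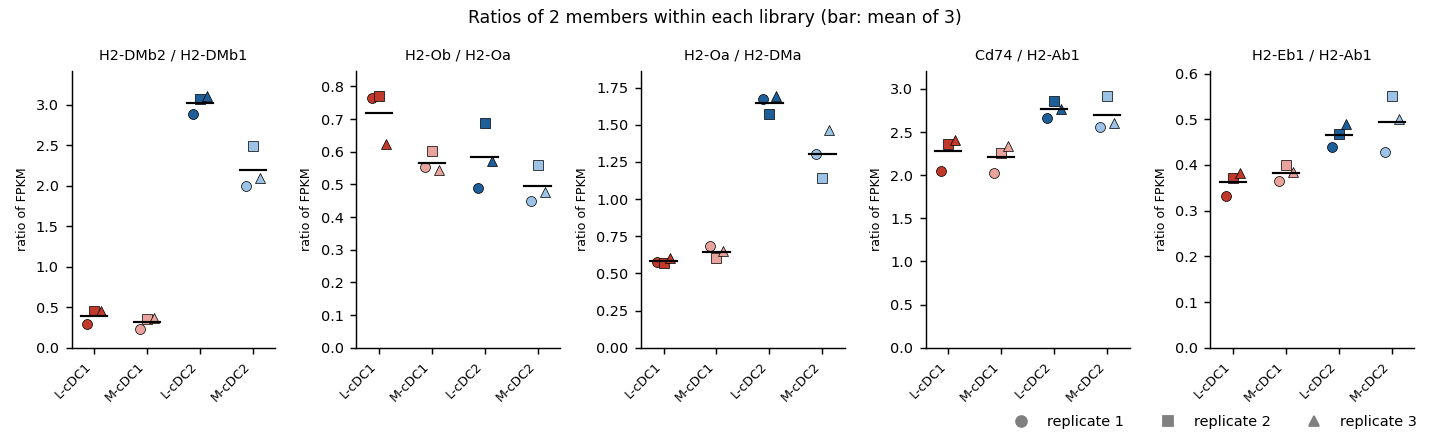
Ratio of 2 members' FPKM (vertical axis, starting at 0) in each library for 5 pairs, by group; symbols are replicates and bars are means of 3. H2-DMb2 over H2-DMb1 lies at 0.452 or below in the 6 cDC1 libraries and at 2.0 or above in the 6 cDC2 libraries.

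Ciita, the coactivator, gave no subset difference past the threshold. It had 94.8, 89.9 and 94.9 FPKM in the L-cDC1 libraries, 90.1, 80.9 and 96.9 in M-cDC1, 120.0, 88.4 and 93.0 in L-cDC2 and 109, 97.1 and 93.0 in M-cDC2. The groups overlapped throughout. The difference was -0.10 in L (95% interval -0.35 to 0.16, limma adjusted p = 0.560) and -0.16 in M (95% interval -0.42 to 0.10, adjusted p = 0.330), and it turned to 0.10 and 0.04 after median-of-ratios scaling.

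The members on chromosome 17 lie within the class II region, and genes next to each other there went different ways. In the deposited table, whose build is not given in the sources used here and whose coordinates differ from those of GRCm38 above, H2-DMb2 (34362281 to 34370529) and H2-DMb1 (34372046 to 34379204) adjoin. H2-Oa, the first of the members along the chromosome, and H2-DMb2 were lower in cDC1, H2-DMa between them was higher, and so was H2-DMb1. Among all genes tested, 12.9% were called higher in cDC1 in L and 12.7% in M. Of 6 tested neighbours that are not class II genes, 5 were called higher in cDC1 in each of L and M, with a median of 1.13 and 1.07. They include the peptide transporter genes Tap1 (1.35 in L and 1.18 in M) and Tap2 (1.12 and 0.99) and the immunoproteasome subunits Psmb9 (1.15 and 1.15) and Psmb8 (0.95 and 0.83), all of class I presentation, and the receptor gene Notch4 (3.38 and 2.46). Brd2 was not called. H2-Ob, between Tap2 and H2-Ab1, was lower.

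**Figure D4:**
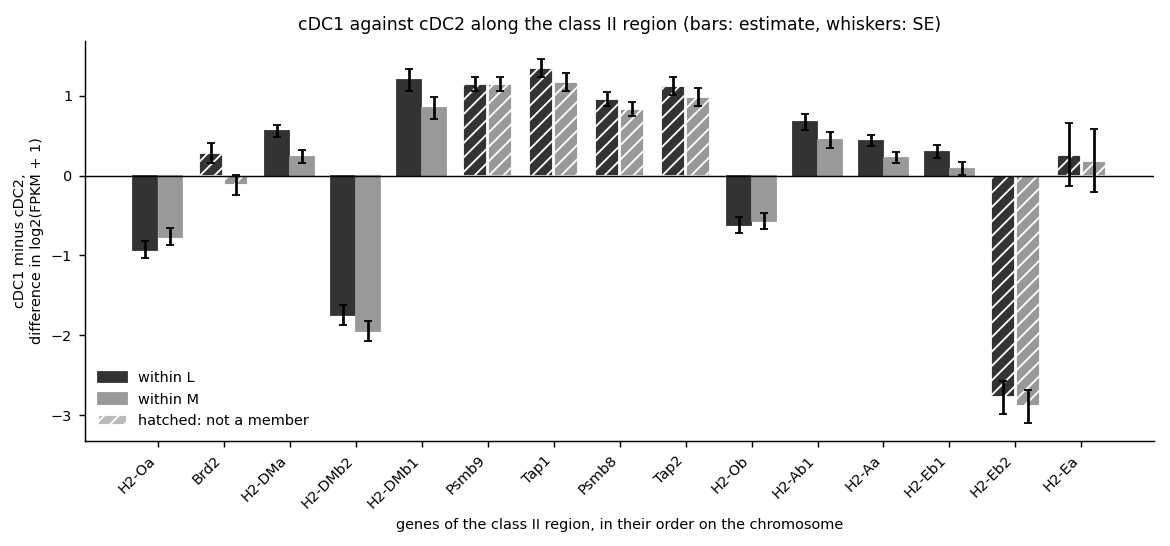
Estimated cDC1 minus cDC2 difference in log2(FPKM + 1) (vertical axis) of class II region genes in their chromosomal order (horizontal axis, not to distance), dark bars within L, light bars within M, whiskers SE, hatched bars genes that are not members. Bars below 0 in both L and M for H2-Oa, H2-DMb2, H2-Ob and H2-Eb2 stand among bars above 0. The bar of Brd2 in M also lies below 0 (-0.12, not called). Notch4 is not drawn.

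Of 2 other class II genes, H2-Eb2, a beta chain gene of the same region, was lower in cDC1. It had 1.31 to 2.54 FPKM in the L-cDC1 libraries and 1.6 to 2.0 in M-cDC1, against 13.9 to 23.1 in L-cDC2 and 17.5 to 23.5 in M-cDC2. The log2 difference was -2.78 in L (SE 0.20, limma adjusted p = 1.08e-07) and -2.89 in M (SE 0.20, adjusted p = 7.24e-08). H2-Eb2 thus went the other way from H2-Eb1 in L under the deposited scaling.

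Of 12 transcription factors of class II genes, 2 were called higher and 7 lower in cDC1 in L, and 1 higher and 4 lower in M, with medians of -0.39 and -0.33 beside the all-gene medians of -0.19 and -0.18. Among all genes 12.9% were called higher and 26.6% lower in L, and 12.7% and 25.4% in M. After median-of-ratios scaling the counts of these factors were 2 higher and 4 lower in L and 2 higher and 3 lower in M. With that scaling 37.2% of all genes were called in L and 35.7% in M. Irf8, which cDC1 need for their development, was higher by 5.51 in L and 5.42 in M, and Irf4, a factor of cDC2, differed by -2.93 and -3.73. Irf1, an interferon-responsive factor, differed by -0.37 and -0.61. Within the RFX complex, under the deposited scaling, Rfxap was higher in L (0.82, limma adjusted p = 0.00168) and did not pass in M (0.30, adjusted p = 0.191). Rfx5 was lower in both (-0.96 and -1.25), averaging 4.74 ± 0.598 FPKM in L-cDC1 libraries and 4.24 ± 2.04 in M-cDC1, against 10.1 ± 0.686 in L-cDC2 and 10.7 ± 1.2 in M-cDC2 (SD, n = 3 each).

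Of 8 tested genes that cut the invariant chain or process antigen, 6 were lower in cDC1 in L and the other 2 not called, and the same counts held in M and under both other scalings. As deposited, 26.6% of all genes were called lower in cDC1 in L and 25.4% in M. The median differences of the 8 genes were -0.83 in L and -1.01 in M. Ctsd, an aspartic protease of lysosomes, differed by -2.56 in L and -2.6 in M, Ctsh by -1.15 and -1.18, Ctsz by -0.91 and -0.88, and Ifi30, a thiol reductase that opens disulfide bonds of antigen, by -1.08 and -1.39. Marchf1, the ubiquitin ligase that removes class II from the surface, was higher in cDC1 by 0.54 in L (limma adjusted p = 0.00778) and 0.60 in M (adjusted p = 0.00437). Cd83, which opposes it, was higher in L (0.50, limma adjusted p = 0.00133) and as deposited did not pass in M (0.22, adjusted p = 0.103). After median-of-ratios scaling Marchf1 and Cd83 were both called higher in cDC1 in M, and after quantile normalization 1 of these 2 genes was.

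Genes most like the beta chain genes across the 12 libraries were looked for among 6729 genes with a mean of at least 5 FPKM, by the root mean square difference of log2 values after each gene's own mean was taken off. H2-DMb1 was closest to Bid (0.133), Poglut1 (0.133) and Pdia6 (0.141), and H2-DMb2 to Sema4d (0.122), Rogdi (0.142) and Lta4h (0.148).

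The comparison of L with M asks whether cDCs of the same subset differ between the letters, whose meaning the sample titles do not spell out. No member passed in either subset in the main limma fit. Some other settings called members in cDC2, as given here and in the section on processing. In cDC1, 0 of 10 were called by limma, against 0.394% of all genes, and 2 had an unadjusted p under 0.05, as did 10.3% of all genes. In cDC2, 0 of 10 were called, against 1.83% of all genes, and 5 had an unadjusted p under 0.05, as did 10.2% of all genes. The groups did not overlap for 1 member in cDC1 and 4 in cDC2, against 13.9% and 16.9% of all genes. The member in cDC1 was higher in L, as in 8.28% of all genes, and the 4 in cDC2 were lower in L, as in 6.92%. Limma-voom on recovered reads called 0 in cDC1 and 2 in cDC2. The members' median was 0.03 in cDC1 and -0.17 in cDC2, and that of all genes 0.02 and 0.03.

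In cDC2 the 3 members with the smallest p had lower mean levels in L, without passing the threshold. H2-Aa, with its L-cDC2 libraries at 2259.7 to 2406 FPKM and its M-cDC2 libraries at 2763 to 2926, differed by -0.31 (95% interval -0.46 to -0.15, limma adjusted p = 0.0523). It passed with the library total taken without the members (adjusted p = 0.0424) and with limma-voom (adjusted p = 0.00464). A block for the replicate number also called H2-Aa, as stated in the section on processing. H2-DMa differed by -0.30 (95% interval -0.47 to -0.13, limma adjusted p = 0.0932). H2-Eb1 differed by -0.27 (95% interval -0.43 to -0.10, limma adjusted p = 0.136) and passed with limma-voom (adjusted p = 0.0256) and quantile normalization (adjusted p = 0.0358).

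The L-cDC2 libraries of H2-Aa, H2-Eb1, Cd74 and H2-DMa lay wholly below those of M-cDC2. H2-DMb1 differed by -0.36 (95% interval -0.65 to -0.06, limma adjusted p = 0.334). It was called only with a block for the replicate number, whose meaning the labels do not give, as stated in the section on processing. H2-Ob differed in the other direction, by 0.27 (95% interval 0.06 to 0.48, adjusted p = 0.290), and its L-cDC2 libraries at 182 to 233 FPKM overlapped M-cDC2 at 169 to 184. In cDC1 the 2 members with an unadjusted p under 0.05 were H2-DMb2, at 0.31 (95% interval 0.04 to 0.58, limma adjusted p = 0.403), and H2-Ob, at 0.22 (95% interval 0.01 to 0.43, adjusted p = 0.467). H2-Ob was the 1 member whose L-cDC1 and M-cDC1 libraries did not overlap.

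**Figure D5:**
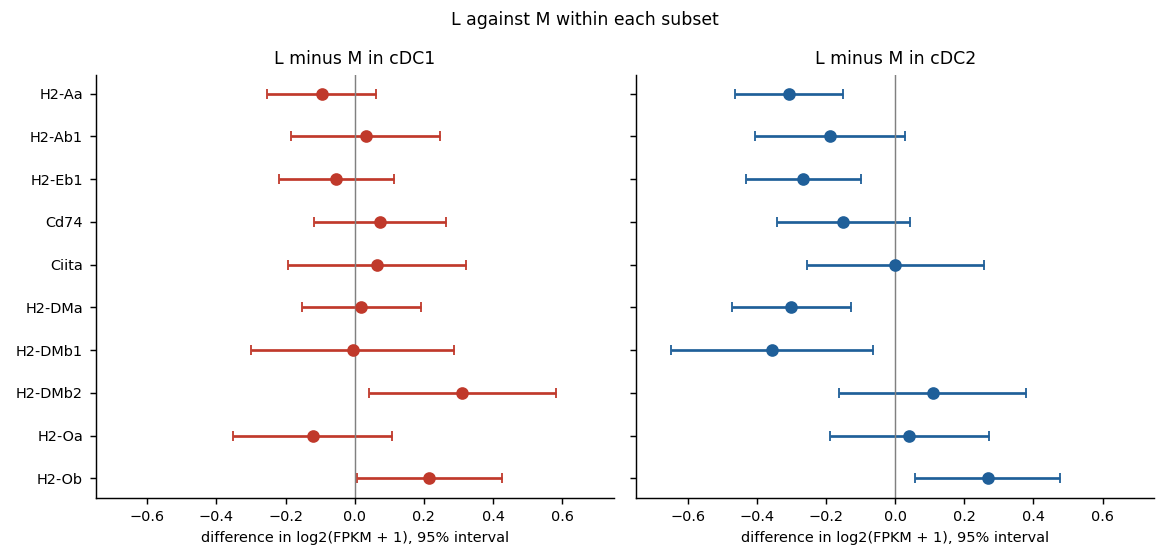
Difference of L minus M in log2(FPKM + 1) with its 95% interval (horizontal axis) for the 10 members (rows), in cDC1 (left) and in cDC2 (right). In cDC1 most intervals span 0, while in cDC2 those of H2-Aa, H2-Eb1, H2-DMa and H2-DMb1 lie below 0 and that of H2-Ob above it; these intervals are not adjusted for the number of genes.

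Markers of other cells moved with the letters. Of 14 tested B cell markers, 7 were higher in L in cDC1 and 11 in cDC2, and none was lower. Igkc, the kappa light chain gene, averaged 245 FPKM in L-cDC1 (M-cDC1 2.38) and 990.2 FPKM in L-cDC2 (M-cDC2 2.14). The 7 in cDC1 differed by 1.49 (Cr2) to 6.07 (Igkc) and also include Cd79a, Fcer2a, Cd79b and Iglc2. The 11 in cDC2 differed by 1.02 (Cr2) to 7.86 (Igkc) and also include Cd79a, Fcer2a, Iglc2, Fcrla, Vpreb3, Ighd, Ighm and Ms4a1. Cd79a, a chain of the B cell receptor complex, averaged 16.8 FPKM in L-cDC1 (M-cDC1 0.263) and 52.6 FPKM in L-cDC2 (M-cDC2 0.514). Pax5 was listed at 0 in all M libraries. Of 8 tested T and NK cell markers 3 were higher in L in cDC1 (Trbc2, Nkg7 and Trac, by 1.53 to 2.71) and 6 in cDC2 (these with Lck, Ncr1 and Gzma, by 2.3 to 4.35), with summed levels of 10.8 to 20.9 FPKM in L-cDC1 against 0.504 to 0.973 in M-cDC1 and 40.1 to 105.9 in L-cDC2 against 2.08 to 2.56 in M-cDC2.

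Of 8 tested monocyte and macrophage markers 3 were lower in L in cDC2 and none was called in cDC1: Lyz2 averaged 252 FPKM in L-cDC2 against 932 in M-cDC2, Csf1r 24.1 against 65.3 and Ccr2 1.85 against 7.35. Summed over the 10 listed markers, the level was 333 to 342 FPKM in L-cDC1 against 439 to 495 in M-cDC1. In L-cDC2 it was 321 to 481, against 1022 to 1232 in M-cDC2. Lyz2 made up most of each sum, with a mean of 438 FPKM over the M-cDC1 libraries and 322 over those of L-cDC1. The sums therefore mainly follow this gene. Of 4 tested plasmacytoid DC markers, Ly6d, which B cells also express, was higher in L by 4.67 in cDC1 and 4.94 in cDC2. Of the subset's own markers Cd209a differed by -1.03 in cDC2, as did Naaa and Clec9a of the cDC1 list by -0.75 and -0.83. None of 10 markers of mature DCs was called in either subset. The part of these cells in the values of H2-Ob, H2-DMb2 and the members lower in L-cDC2 was not tested.

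Ratios within a library, which no scaling by a factor per library moves, gave 1 result between L and M. H2-Ob over H2-Oa was 0.765, 0.771 and 0.624 in the L-cDC1 libraries against 0.554, 0.602 and 0.544 in M-cDC1, and 0.488, 0.688 and 0.572 in L-cDC2 against 0.451, 0.559 and 0.475 in M-cDC2. The cDC1 groups did not overlap and the cDC2 groups did. The log2 ratio was higher in L by 0.28 (exact permutation within subsets, p = 0.02, adjusted p = 0.04). Leaving out L-cDC1 replicate 2, any M-cDC1 replicate, L-cDC2 replicate 2 or 3, or M-cDC2 replicate 1 or 3 ended this call, with an adjusted p up to 0.0857. Between subsets this ratio differed by 0.26 (exact permutation, p = 0.035, adjusted p = 0.0571). H2-DMb2 over H2-DMb1 differed between L and M by 0.39 (exact permutation, p = 0.04) and missed the threshold at an adjusted p = 0.0571. The other 3 ratios differed by -0.08 to 0.10 between L and M, with adjusted exact permutation p-values of 0.294 to 0.460.

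Whether the L minus M difference depended on the subset was tested as an interaction. By limma 0 of 10 members were called, against 0.298% of all genes, and 1 had an unadjusted p under 0.05, against 8.53%; limma-voom on recovered reads also called 0. That member, H2-DMa, gave 0.32 (95% interval 0.08 to 0.56, limma adjusted p = 0.414). The interaction estimates of the classical chains and Cd74 lay between 0.21 and 0.22, with intervals that reached from -0.09 up to 0.53, so the absence of a call does not show that L and M differed alike in both subsets.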

How the data were processed

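The deposited table gives FPKM per gene and library, made by the authors. Per the submitters' processing notes, the tools were STAR 2.7.9a and featureCounts 2.0.1, with trimming by cutadapt 3.7, Trim Galore 0.6.7 and Trimmomatic 0.39. The authors' tools listed there also include DESeq2 1.20.0, and the build listed is the human GRCh38, although the gene symbols are those of the mouse. Per the labels' protocols, libraries were made with SMART-Seq HT and Nextera XT kits, which do not mark the strand. For 100% of values, FPKM times length was a whole number of reads within 0.01 read, which gave the depths; PCR duplicates cannot be seen, so depth covers counting error only.

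log2(FPKM + 1) of the 12434 genes was fitted with limma 3.58.1 (R 4.3.3), with 1 mean per group over all 12 libraries and 8 residual degrees of freedom. A fold change on this scale understates changes of low genes. The planned count models were not run, since FPKM are not counts. Ratios used a pseudocount of 0.1 for the test, and an exact permutation test of 3 against 3 libraries alone cannot go below 0.1. The limma fit was tested on simulated data with changes in L-cDC1 only and no pattern by replicate number. That run therefore does not cover such a pattern, nor the many differences between subsets seen here. Alternatives were other pseudocounts, filters, scalings, 2-group fits, the replicate block and leaving out each library; limma-voom and library totals without the members were added after seeing the data.

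The 10 members, the gene lists and the tests were chosen with earlier results of these data known. All members are named; a list gene is named when called in an L minus M contrast or among the 3 smallest p of its list in a cDC1 minus cDC2 contrast, with others (Tap2, Rfx5 and Pax5) added after their values were seen; of the marker lists the L minus M calls are given by name, except 1 that is not reported here, and the subset calls by count.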

Additional observations from a re-analysis of the deposited data

How the results depend on the processing

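Each member had at least 4828 reads in every library, and each group had 3 libraries. The planned count-model fits were not run, because the deposited values are FPKM; limma-voom on recovered reads took their place and was added after seeing the data, as were library totals without the 10 members. The cause of the changes below was not tested except where construction gives it. Of the genes called between subsets, 32.7% in L and 33.2% in M were higher in cDC1 as deposited, 48.7% and 49% after median-of-ratios scaling and 52.6% and 53.4% after quantile normalization.

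Members called in L minus M in cDC2 numbered 0 as reported, 1 with quantile normalization, 2 with limma-voom and 1 with totals without the members. With the replicate block 2 were called, H2-Aa (limma adjusted p = 0.0178) and H2-DMb1 (adjusted p = 0.0257). Over all genes tested, libraries sharing a number correlated by -0.00171 to 0.156 in their deviations. The labels do not say what the numbers share, so they were not taken as pairs. Even so, in 9 of 12 comparisons a library correlated best with the library of its own number among the 3 of another group. That is a hint from the data and not from the design. These comparisons are not independent, since the L-cDC1 libraries entered more than 1 contrast. Several members followed the number in all groups, as given under other observations. Between subsets 4 members were called in M with only the 2 groups compared, against 7, and 5 in L with no filter, against 9. Leaving out 1 library gave 5 to 7 calls in M, 9 in L and 0 in the other 3 contrasts.

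Quantile normalization, which fixes the values at the top ranks, turned 8 differences: between subsets H2-Aa (-0.33), H2-Ab1 (-0.37) and H2-Eb1 (-0.53) in M and H2-Ab1 (-0.45) and H2-Eb1 (-0.22) in L, and for L minus M H2-Aa (0.14) and H2-DMb1 (0.13) in cDC1 and H2-Ab1 (0.13) in cDC2; the interaction of H2-Ab1 became -0.0835. Median-of-ratios scaling turned Ciita between subsets (0.0401 in M, 0.10 in L) and in L minus M in cDC2 (-0.0325), and H2-Ab1 (-0.0043) and H2-DMa (-0.0163) in L minus M in cDC1. Totals without the members turned Ciita in L minus M in cDC2 (-0.0134).

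With 1 library left out, differences that changed sign ranged as follows. In L minus M in cDC1, H2-Ab1 ran from -0.0079 to 0.0805, Ciita from -0.0045 to 0.12, H2-DMa from -0.0250 to 0.0562 and H2-DMb1 from -0.12 to 0.0741. In L minus M in cDC2, Ciita ran from -0.13 to 0.0860 and H2-Oa from -0.0599 to 0.10. Ciita ran from -0.18 to 0.0384 between subsets in L and from -0.0221 to 0.20 in the interaction, where H2-Ob ran from -0.16 to 0.0190. The log2 ratio of H2-Ob to H2-Oa ran from 0.22 to 0.34 for L minus M and from 0.20 to 0.32 between subsets, where it passed without M-cDC2 replicate 2 (adjusted exact permutation p = 0.0333). That of H2-DMb2 to H2-DMb1 for L minus M ran from 0.29 to 0.50 and passed without L-cDC1 replicate 1 (adjusted exact permutation p = 0.02).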

Other observations

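H2-Ea, the alpha chain gene of the E molecule, differed by replicate number more than by group. C57BL/6 mice carry a form of this gene that makes no E protein. Replicate 1 had 304 FPKM in L-cDC1, 341 in M-cDC1, 269 in L-cDC2 and 274 in M-cDC2, whereas replicates 2 and 3 had 502 to 739 FPKM over the 4 groups. The groups overlapped, and H2-Ea was not called in any of the contrasts. Within all 4 groups H2-Ab1 and H2-DMb1 were highest in replicate 1, and H2-Aa, H2-Eb1 and H2-Oa were highest in replicate 3. The ratios of H2-DMb2 to H2-DMb1, of Cd74 to H2-Ab1 and of H2-Eb1 to H2-Ab1 were lowest in replicate 1 within all 4 groups. Neither the main limma fit nor the ratio tests took the replicate number into account. The labels do not say what the replicate numbers share, and the cause of the split was not tested.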
